A study of Mus musculus with 87 samples.

Results

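The genes described here are the members of Hox paralog groups 6, 7 and 8 that the RNA-seq tables list: Hoxa6, Hoxb6, Hoxc6, Hoxa7, Hoxb7, Hoxb8, Hoxc8 and Hoxd8. They were taken by gene symbol, and they are 8 of 39 Hox genes among the 26171 symbols of each table. All 8 were read in all 13 tables of comparisons, 7 made in embryonic stem cells (ESC) and 6 in neuronal precursors (NP) grown from them. Hox genes encode homeodomain transcription factors that give cells along the head-to-tail axis their position. They lie in 4 clusters (Hoxa to Hoxd), and genes at one end of a cluster switch on early and towards the head while genes at the other end switch on late and towards the tail. Groups 6 to 8 lie in the middle of the clusters and are known for patterning the thorax and the matching part of the spinal cord. In ESC the clusters are classic targets of the Polycomb repressive complex PRC2, which contains Suz12 and methylates lysine 27 of histone H3 (H3K27me3), and retinoic acid is a known inducer of Hox genes during differentiation.

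The study edited Suz12 in the mouse ESC line 129-B13 and asked what its alternatively spliced exon 4 contributes. ESC were grown in 20% serum with LIF and gave 18 RNA-seq samples: wild type (WT, 3 samples), a full Suz12 knock-out (KO, 3), the knock-out rescued with the long isoform (KO-L, 2) or the short isoform (KO-S, 2), each rescue with a mutation named 3D at position 196 (KO-L3D, 2, and KO-S3D, 2), cells with constitutive exon 4 (CSex4, 2) and cells that the labels describe as a Suz12 knock-out deleting exon 4 (Deltaex4, 2). The 4 rescue groups thus also carry the knock-out, and the 3D rescues were placed in the Rosa26 locus. NP came from embryoid bodies that received retinoic acid at day 4 and were collected at day 8, and gave 14 samples: WT (4), KO, KO-L, KO-S, CSex4 and Deltaex4 (2 each). The labels name 1 parental line for all RNA-seq groups and do not say whether an edited line is 1 clone or whether samples came from separate cultures, so p-values may measure only technical spread.

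The promoters of 4 of the 8 genes could be read from RefSeq (GRCm38.p6), namely those of Hoxa6, Hoxa7, Hoxb8 and Hoxd8. Hoxa6 and Hoxd8 are shown because they gave the largest fall in NP and the lowest adjusted p in ESC of the 8 genes in the knock-out, and because their CG content differs. Each line holds the 250 bases before the annotated start, 5′ to 3′ on the gene's own strand, with every CG dinucleotide in capitals. The Hoxa6 window is chr6:52208673-52208922 (minus strand), and the Hoxd8 window is chr2:74704365-74704614 (plus strand).
Hoxa6: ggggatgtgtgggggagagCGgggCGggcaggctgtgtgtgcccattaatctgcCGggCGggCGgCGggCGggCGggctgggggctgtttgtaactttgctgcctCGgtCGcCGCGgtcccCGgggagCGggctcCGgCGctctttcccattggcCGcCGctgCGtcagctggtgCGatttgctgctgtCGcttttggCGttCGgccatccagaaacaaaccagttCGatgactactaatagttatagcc
Hoxd8: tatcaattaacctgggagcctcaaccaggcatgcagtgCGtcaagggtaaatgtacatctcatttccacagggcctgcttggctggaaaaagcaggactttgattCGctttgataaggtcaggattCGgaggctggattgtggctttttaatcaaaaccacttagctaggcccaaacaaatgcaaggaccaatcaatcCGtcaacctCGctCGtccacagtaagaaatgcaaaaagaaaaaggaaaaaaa
The Hoxa6 window held 24 CG and 65.2% G or C, and 88.3% of 27025 promoters of the same length held fewer CG. Hoxd8 held 6 CG and 44.4% G or C, equal to the median of 6 CG over all promoters. Hoxa7 held 7 CG and Hoxb8 held 12. A search of both strands for AGGTCA, a part of a retinoic acid receptor site, found it in the Hoxd8 window and in none of the other 3, against 13.8% of all promoters. Full receptor sites were not searched for. The letters TTTATTG or TTTATGG, read by CDX factors, occurred on either strand in the Hoxb8 window and in none of the other 3, against 6.74% of all promoters.

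The deposited RNA-seq values are statistics of comparisons, made by the authors: a log2 fold change with its standard error (SE), a p-value and an adjusted p. A gene is called higher or lower where the authors' adjusted p is under 0.05. Reads of single libraries were recovered from the mean reads in these tables and put on 1 scale within ESC and 1 within NP. They are given as scaled reads, and as these are not divided by gene length they compare libraries for 1 gene, not genes with each other. Library numbers only name the recovered libraries and are not the replicate numbers of the labels. The tables summed to 26085140 to 31499803 scaled reads per library. Suz12, the targeted gene, was lower in the KO in the authors' deposited tables by -1.82 ± 0.22 in ESC (log2 ± SE, adjusted p = 8.2e-15) and by -2.14 ± 0.33 in NP (adjusted p = 5.6e-09). The deleted stretch is not given in the sources used here, so Suz12 reads that remain do not show intact mRNA. Suz12 was also lower than in WT in ESC KO-L (-1.05), KO-S (-0.83) and KO-L3D (-1.85) in the authors' deposited tables, whereas KO-S3D gave -0.06 ± 0.42 (adjusted p = 0.974). In NP Suz12 held 1203 and 1250 scaled reads in the KO and 5029, 5786, 3587 and 3125 in WT. It held 3308 and 2964 with the long and 2969 and 2287 with the short rescue, 8469 and 9092 in CSex4 and 4029 and 3110 in Deltaex4. CSex4 thus lay above every WT library and KO-S below every one. In bulk RNA, fewer cells that express a gene and less RNA per cell cannot be told apart.

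In WT ESC the 8 genes were close to silent, and in the Suz12 knock-out 5 of them rose and none fell, where 11% of all 16918 genes with an adjusted p were called higher. Hoxd8 held 3.81, 2.0 and 8.96 scaled reads in the 3 WT libraries and 184, 142 and 194 in the 3 KO libraries. Hoxb7 held 6.67, 3.99 and 0 in WT and 50.7, 42.0 and 43.6 in the KO. Hoxc8 held 0, 2.99 and 1.12 in WT and 35.6, 22 and 18.7 in the KO. For all 3 genes every KO library lay above every WT library. Reads of single libraries were recovered only for the genes and markers studied here. The share of all genes that separate in this way is thus not known, and such statements only describe the libraries. Hoxc8 is known for patterning the thoracic skeleton and motor neurons of the spinal cord, and Hoxb7 belongs to the middle of the Hoxb cluster. The authors' deposited table gave log2 fold changes of 5.23 ± 0.62 for Hoxd8 (SE, adjusted p = 3.7e-15), 4.37 ± 1.21 for Hoxc8 (adjusted p = 0.00355) and 3.92 ± 0.87 for Hoxb7 (adjusted p = 0.000135).

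Hoxa7 held 1.91, 2.0 and 8.96 scaled reads in WT and 39.1, 51.0 and 18.7 in the KO, and Hoxc6 held 0.953, 2.0 and 0 against 13.3, 21.0 and 8.31. Their libraries did not overlap either. Both were called higher in the authors' deposited table, Hoxa7 by 3.27 ± 0.83 (adjusted p = 0.00122) and Hoxc6 by 3.86 ± 1.43 (adjusted p = 0.0407). Hoxa6 gave 4.64 ± 1.85 (adjusted p = 0.0626) and Hoxb8 2.83 ± 1.26 (adjusted p = 0.104) by the same deposited values of the authors, and neither passed the threshold. Hoxb6 had no adjusted p there (log2 fold change 3.05 ± 2.34, unadjusted p = 0.191). The low counts set these limits: the 3 WT libraries together held 1 read of Hoxa6, 1 of Hoxb6 and 3 of Hoxc6, against 27, 14 and 44 reads in the 3 KO libraries. Ratios of these summed reads, corrected for depth, were 25.7 for Hoxa6 (95% exact interval 4.24 to 1054), 13.4 for Hoxb6 (2.03 to 564) and 14.0 for Hoxc6 (4.48 to 70.4), where the intervals cover counting error only.

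The median log2 fold change of the 8 genes was 3.89, against 0.01 over all genes tested. Among the other 31 Hox genes the authors' deposited table called 27 higher and 0 lower, with a median of 4.74. By position these were 6 of 8 genes of groups 1 to 3, 5 of 7 of groups 4 and 5, 7 of 7 of groups 9 and 10 and 9 of 9 of groups 11 to 13. Of the marker lists, 2 of 6 pluripotency markers were higher (Klf4 by 1.46 and Nanog by 1.28), as were 3 of 6 trophoblast markers and 1 of 4 mesoderm markers (T, brachyury, by 3.48), and none of the 5 neural progenitor, 3 neuron or 5 endoderm markers was called. The part of these cell type markers in the Hox result was not tested.

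**Figure D1:**
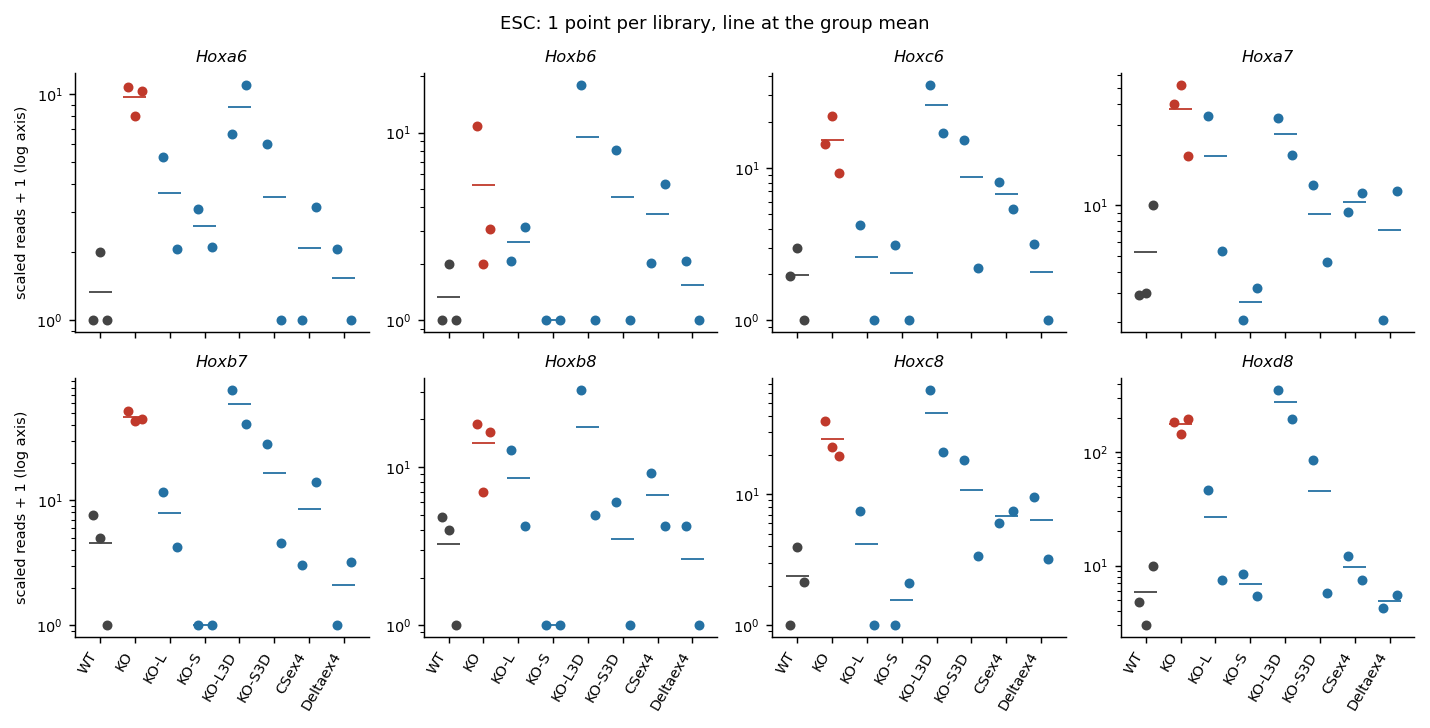
Scaled reads plus 1 (log axis) of the 8 Hox genes in each ESC library, 1 point per library, with a line at the mean of each group (WT 3 libraries, KO 3, all others 2). KO and KO-L3D stand highest in most panels, Hoxd8 reaching 142 to 351 there against 2.0 to 8.96 in WT, while the 2 libraries of KO-L and of KO-S3D lie far apart.

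With the long-isoform rescue that carries the 3D mutation (KO-L3D), 3 of the 8 genes were higher than in WT, where 8.22% of all genes tested were. Hoxd8 held 351 and 193 scaled reads in the 2 libraries, Hoxb7 75.8 and 39.9, and Hoxc8 62.1 and 19.9. All 6 of these values lay above the WT libraries of the same gene. The authors' deposited table called Hoxd8 (5.70 ± 0.81, adjusted p = 4.1e-10), Hoxb7 (5.31 ± 1.44, adjusted p = 0.00318) and Hoxc8 (4.28 ± 1.55, adjusted p = 0.0349) higher. Hoxc6 gave 5.0 ± 2.01 (adjusted p = 0.0646) and Hoxa7 2.47 ± 1.58 (adjusted p = 0.296). As a ratio of levels Hoxb7 was at 3.85 with all libraries and at 3.32 without WT library 3, which held no read, both under the deposited 5.31. The deposited fold change gives nearly no weight to WT library 1, which held the most Hoxb7 of the WT libraries (6.67). Of the other 31 Hox genes, 15 were called higher and 0 lower, among them 7 of 7 of groups 9 and 10. Trophoblast markers moved with this group: the authors' deposited table called 5 of 6 higher, with Elf5 at 7.47, Hand1 at 6.08 and Cdx2 at 3.80. It also called 2 of 6 pluripotency markers higher (Klf4 and Nanog) and 1 of 5 neural progenitor markers (Pax6) and 1 of 3 neuron markers (Map2) lower, where 10.1% of all genes were lower. Their part in the Hox result was not tested.

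The KO-L3D and KO effects did not differ by the test for any of the 4 genes with enough reads (baseMean of at least 10 in both tables), where 1.13% of all genes did. The differences on the log2 scale, KO-L3D minus KO, were 0.47 for Hoxd8 (95% interval -1.53 to 2.47), -0.09 for Hoxc8 (-3.94 to 3.77), 1.40 for Hoxb7 (-1.90 to 4.70) and -0.81 for Hoxa7 (-4.31 to 2.69). These wide intervals leave room for large differences in either direction. All ESC tables share the WT libraries, which by itself makes the SE of such a difference too large.

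In the other 5 ESC groups none of the 8 genes was called, at levels close to the limit of what the reads can show. For KO-L the 2 libraries disagreed: Hoxd8 held 44.8 and 6.45 scaled reads and Hoxa7 33.1 and 4.30. KO-S3D was split in the same way, with 84.8 and 4.77 for Hoxd8, 27.3 and 3.58 for Hoxb7 and 17.2 and 2.39 for Hoxc8. The upper library of each pair lay above all 3 WT libraries for the genes named, and the lower one did not. In KO-S, by contrast, both libraries held no read of Hoxb7, Hoxb8 or Hoxb6, and Hoxd8 stood at 7.37 and 4.41, within the WT range. CSex4 held 11.2 and 6.52 for Hoxd8, 8.11 and 10.9 for Hoxa7 and 7.10 and 4.34 for Hoxc6. Deltaex4 held 3.23 and 4.47 for Hoxd8, 1.08 and 11.2 for Hoxa7 and 2.15 and 0 for Hoxc6.

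The DESeq2-style test in the authors' deposited tables called none of the 8 genes in these groups, and none had an unadjusted p under 0.05. In KO-L no member had an adjusted p, where 2.23% of all genes tested were called and 6.91% had an unadjusted p under 0.05. The same held for KO-S (7.91% called, 14.1% unadjusted) and for CSex4 (2.41% and 7.86%). In KO-S3D Hoxd8 alone had an adjusted p (2.40 ± 1.5, adjusted p = 0.491), beside 3.23% of all genes called and 9.99% with an unadjusted p under 0.05. In Deltaex4 all 8 genes had an adjusted p of 0.999977, and there 0% of 20263 genes were called and 0.666% had an unadjusted p under 0.05. The fold change from WT of Hoxd8, the 1 member with enough reads for these pairs, was called different between groups in none of 3 tests as planned: KO-L minus KO was -3.28 (95% interval -6.75 to 0.19, adjusted p = 0.685, 0.589% of all genes called), KO-L3D minus KO-L was 3.75 (0.12 to 7.38, adjusted p = 0.265, 4.88% called) and KO-S3D minus KO-L3D was -3.30 (-6.64 to 0.04, adjusted p = 0.99986, 0.0541% called). With the SE scaled to the spread over all genes the last of these was called, lower in KO-S3D. The interval of KO-L minus KO holds both 0 and a full return to the WT level.

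In NP all 8 genes were read well, and 1 WT library stood apart. WT library 1 held 2014 scaled reads of the pluripotency factor Pou5f1, against 769, 200.3 and 202 in the other 3, and 2865 of the neuronal tubulin Tubb3, against 10282, 13693 and 11225. It also held the most Afp, an endoderm marker, with 13571 against 798 to 5135. Its levels were the lowest of the 4 WT libraries for 7 of the 8 genes, all but Hoxc8, for example 471 against 2234 to 2974 for Hoxa6 and 3173 against 10386 to 14301 for Hoxb8. The authors' deposited tables of KO, CSex4 and Deltaex4 against WT rest on WT libraries 1 and 2, and the table of WT against KO rests on libraries 3 and 4. The comparison of WT and KO is therefore read in both of its tables, which share the same 2 KO libraries, and CSex4 and Deltaex4 are set against the other WT libraries only as ratios of levels.

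In the NP knock-out 5 of the 8 genes were called lower, where 9.85% of all genes tested were, and 1 higher, Hoxc8, where 11.6% were. Hoxa6 held 57.8 and 23.9 scaled reads in the KO, against 471, 2828, 2234 and 2974 in WT libraries 1 to 4. Hoxb8 held 1063 and 826 against 3173, 14030, 10386 and 14301. Hoxb6 held 635 and 494 against 1532, 5885, 5137 and 6403. Both KO libraries lay below all 4 WT libraries for these genes, WT library 1 included, where again the share of all genes that separate is not known. Hoxb8 and Hoxb6 lie on either side of Hoxb7 in the Hoxb cluster and act in the trunk spinal cord and in blood cell precursors, and Hoxa6 is a neighbour of Hoxa7 in the Hoxa cluster. Against WT libraries 1 and 2 the authors' deposited table gave log2 fold changes of -5.01 ± 0.46 for Hoxa6 (SE, adjusted p = 5.2e-25), -2.83 ± 0.42 for Hoxb8 (adjusted p = 1.1e-09) and -2.42 ± 0.42 for Hoxb6 (adjusted p = 2.3e-07).

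Hoxc6 held 229 and 332 scaled reads in the KO and 751, 2148, 1854 and 2220 in WT, and Hoxb7 held 252 and 273 against 420, 1445, 1019 and 1481. Again the KO libraries lay below all 4 WT libraries. Both were called lower in the authors' deposited table, Hoxc6 at -2.20 ± 0.48 (adjusted p = 8.3e-05) and Hoxb7 at -1.58 ± 0.49 (adjusted p = 0.00924). Hoxc8 went the other way, with 832 and 1122 in the KO and 80.3, 114, 47.8 and 55.3 in WT, so that the lower KO library stood above the highest WT library. The authors' deposited table gave it a log2 fold change of 3.33 ± 0.44 (adjusted p = 1.7e-12). Hoxa7 held 116 and 118 against 188, 301, 371 and 319, and its -1.03 ± 0.55 (adjusted p = 0.182) in the authors' deposited table was not called. For Hoxd8 the KO libraries (371 and 517) overlapped WT (124, 413, 301 and 345), and its 0.95 ± 0.55 (adjusted p = 0.236) was not called either.

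Set against WT libraries 3 and 4, the authors' deposited table called 6 of 8 genes higher in WT than in the KO (15.6% of all genes) and 1 lower (17.3%). The gene that joined was Hoxa7, at 1.56 ± 0.44 (adjusted p = 0.0019), while Hoxa6 gave 6.05 ± 0.40 (adjusted p = 1.0e-48), Hoxc8 -4.23 ± 0.36 (adjusted p = 2.8e-29) and Hoxd8 -0.44 ± 0.37 (adjusted p = 0.392). The size of the fall depended on WT libraries 1 and 2. As a ratio of levels on the log2 scale, Hoxa6 was at -6.10 without WT library 1 and at -3.51 without WT library 2, Hoxb8 at -3.89 and -1.75, Hoxb6 at -3.38 and -1.44, Hoxc6 at -2.93 and -1.42, and Hoxb7 at -2.46 and -0.68. Hoxa6 also moved with the KO libraries, to -6.08 without KO library 1, and Hoxc8 stayed between 3.09 and 3.60 whichever of the 4 libraries was left out.

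**Figure D2:**
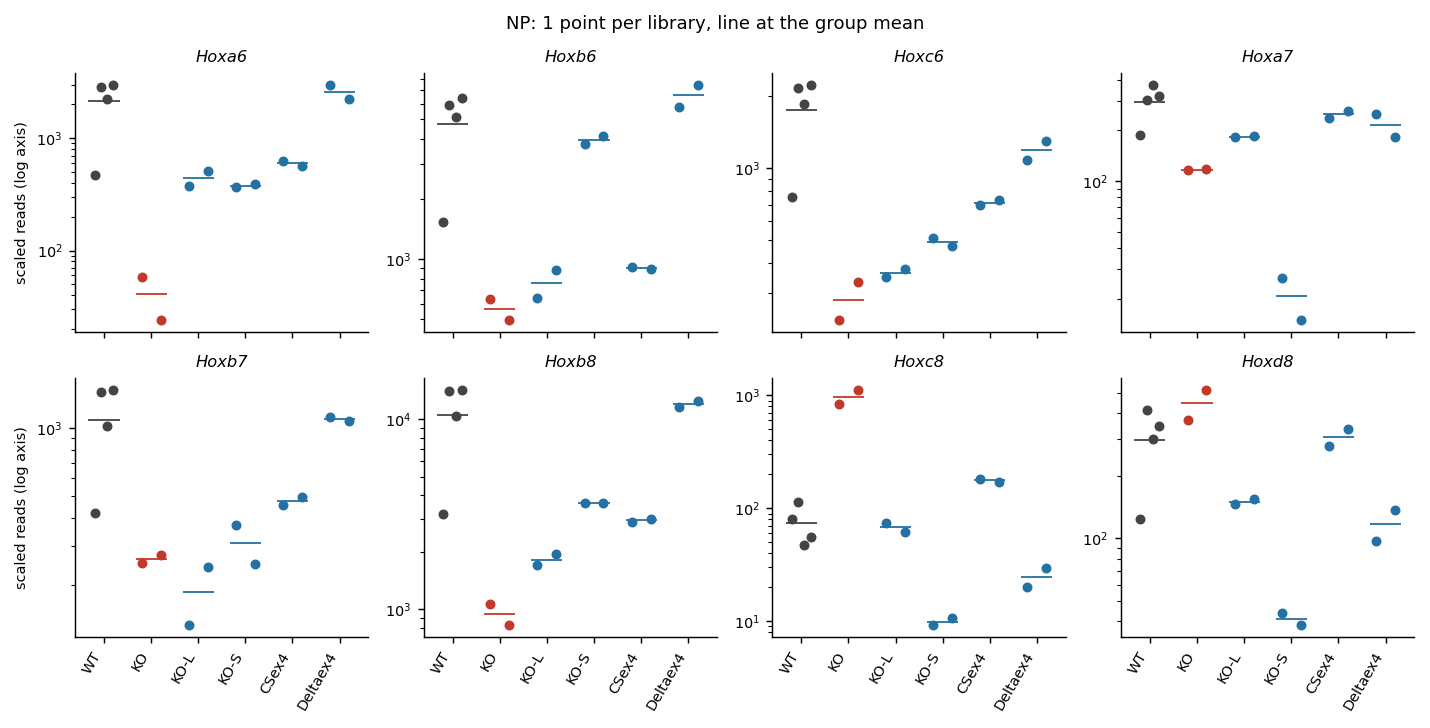
Scaled reads (log axis) of the 8 Hox genes in each NP library, 1 point per library, with a line at the mean of each group (WT 4 libraries, the others 2). The 2 KO libraries lie below all 4 WT libraries for Hoxa6, Hoxb6, Hoxc6, Hoxa7, Hoxb7 and Hoxb8 and above them for Hoxc8, and WT library 1, the leftmost WT point, is the lowest of the 4 for all genes but Hoxc8.

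Calls for the other Hox genes split by their place along the clusters. In the authors' deposited table of NP KO against WT, 6 of 8 genes of groups 1 to 3 and 7 of 7 genes of groups 4 and 5 were lower and none higher. Of groups 9 and 10, 6 of 7 were higher and 1 lower, and of groups 11 to 13, 7 of 9 were higher and none lower. The genes of groups 6 to 8 stood between these, with Hoxc8, of the highest group number among the 8, called higher, and both Hoxc8 and Hoxd8 at positive values. Hoxb8, of the same group number, was called lower. Against WT libraries 3 and 4 the authors' deposited table split in the same way: higher in WT were 7 of 8 genes of groups 1 to 3, 7 of 7 of groups 4 and 5, and 1 of 7 of groups 9 and 10, and higher in the KO were 6 of 7 of groups 9 and 10 and 7 of 9 of groups 11 to 13.

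**Figure D3:**
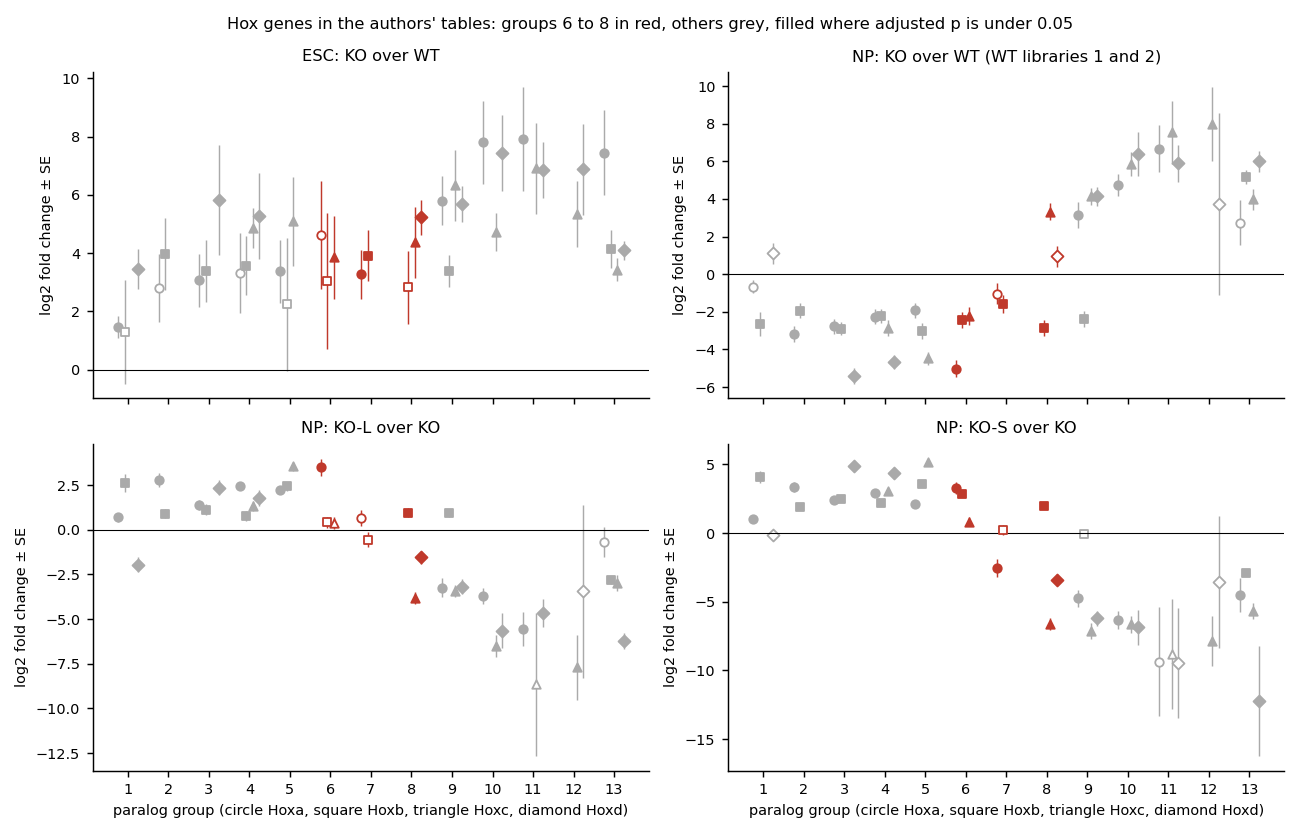
Log2 fold changes with SE from the authors' deposited tables (vertical axis) of all 39 Hox genes by paralog group (horizontal axis), for KO over WT in ESC and in NP and for KO-L and KO-S over KO in NP. Genes of groups 6 to 8 are red, and filled symbols mark an adjusted p under 0.05. In ESC all 8 red values lie above 0, in NP 6 of 8 lie below 0, and in the NP panel groups 1 to 5 lie mostly below and groups 9 to 13 mostly above 0.

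The effect of the knock-out on Hoxa7, Hoxb7 and Hoxd8 differed between ESC and NP. These tables share no library, and 4 members had enough reads in both. NP minus ESC, the log2 fold changes differed by -5.49 ± 1.00 for Hoxb7 (SE, adjusted p = 2.0e-06), by -4.28 ± 0.83 for Hoxd8 (adjusted p = 9.4e-06) and by -4.30 ± 1.00 for Hoxa7 (adjusted p = 0.000351). Hoxb7 was called higher in ESC and lower in NP, whereas Hoxa7 and Hoxd8 were called higher in ESC and were not called in NP. Without NP WT library 1 the NP ratios of levels were -2.46 for Hoxb7, -1.36 for Hoxa7 and 0.11 for Hoxd8, and so still under the ESC values. Hoxc8, higher in both cell types, differed by -1.04 (95% interval -3.57 to 1.49, adjusted p = 0.689). Over all genes tested 14.3% differed. The other 4 genes had a baseMean under 10 in the ESC table and were left out. With no such minimum 6 of the 8 genes were called, all lower in NP than in ESC, and with the SE scaled to the spread over all genes 2 of the 4 were.

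Both rescues were compared with the KO in NP, and the 8 genes responded unevenly. Hoxa6 held 376 and 506 scaled reads in KO-L and 368 and 388 in KO-S, all above the KO (57.8 and 23.9), and all but the 506 below every WT library. Hoxb8 held 1713 and 1948 in KO-L and 3632 and 3639 in KO-S, against 1063 and 826 in the KO. Hoxb6 held 639 and 887 in KO-L and 3769 and 4111 in KO-S, against 635 and 494. So Hoxb6 in KO-L lay next to the KO, and in KO-S it lay inside the WT range of 1532 to 6403. The authors' deposited tables called Hoxa6 higher than in the KO in both rescues (KO-L 3.50 ± 0.47, adjusted p = 1.9e-12, and KO-S 3.30 ± 0.45) and Hoxb8 likewise (0.96 ± 0.24, adjusted p = 0.000438, and 1.95 ± 0.19). Hoxb6 was called in KO-S (2.81 ± 0.19, adjusted p = 6.6e-45) and not in KO-L (0.42 ± 0.29, adjusted p = 0.336).

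Hoxc8 and Hoxd8 were called lower than in the KO in both rescues, and Hoxa7 in KO-S. Hoxc8 held 73.9 and 62.3 in KO-L, inside the WT range of 47.8 to 114, and 9.23 and 10.7 in KO-S, below every WT library. Hoxd8 held 146 and 155 in KO-L and 44.1 and 38.4 in KO-S, against 371 and 517 in the KO and 124 to 413 in WT. Hoxa7 held 182 and 186 in KO-L but 26.7 and 14.9 in KO-S, below the KO itself (116 and 118). In KO-S these 3 genes thus lay below every WT and every KO library. The authors' deposited tables called Hoxc8 lower than in the KO in both rescues, at -3.82 ± 0.33 with the long isoform (adjusted p = 1.1e-29) and -6.61 ± 0.43 with the short one (adjusted p = 4.6e-51), and Hoxd8 by -1.55 ± 0.36 (adjusted p = 0.000128) and -3.41 ± 0.40. Hoxa7 was lower in KO-S (-2.54 ± 0.67, adjusted p = 0.000826) and gave 0.65 (adjusted p = 0.339) in KO-L.

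Hoxc6 and Hoxb7 stayed low. Hoxc6 held 348 and 375 in KO-L and 508 and 471 in KO-S, all above the KO (229 and 332) and below all 4 WT libraries. Hoxb7 held 133 and 242 in KO-L and 370 and 248 in KO-S, below all 4 WT libraries too. The authors' deposited tables called Hoxc6 higher than in the KO in KO-S (0.82 ± 0.31, adjusted p = 0.0272) and not in KO-L (0.39, adjusted p = 0.475), and called Hoxb7 in neither (-0.54, adjusted p = 0.374, and 0.21, adjusted p = 0.692). In all, KO-L against KO had 2 of the 8 genes higher and 2 lower, where 10.9% and 13.8% of all genes were. KO-S against KO had 4 higher and 3 lower, where 16.4% and 18% of all genes were.

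Tests of the difference between the 2 rescues, KO-S minus KO-L, called 5 of the 8 genes, where 10.3% of all genes were called. Hoxb6 (2.39 ± 0.35, adjusted p = 1.6e-09) and Hoxb8 (0.99 ± 0.30, adjusted p = 0.0141) were higher with the short isoform. Hoxa7 (-3.19 ± 0.81, adjusted p = 0.00178), Hoxc8 (-2.79 ± 0.54, adjusted p = 1.2e-05) and Hoxd8 (-1.86 ± 0.53, adjusted p = 0.00761) were lower with it. For the other 3 the intervals of the difference were -1.47 to 1.06 for Hoxa6, -0.47 to 1.34 for Hoxc6 and -0.29 to 1.80 for Hoxb7. Both tables use the same KO libraries, and each rescue has 2 libraries. When the SE was scaled to the spread over all genes, 2 of the 8 were called.

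Both rescues differed from WT libraries 3 and 4 for most of the 8 genes. KO-L minus WT, both against the KO, was called for 5 genes (14.2% of all genes), at -2.55 for Hoxa6, -2.93 for Hoxb6, -2.49 for Hoxc6, -2.77 for Hoxb7 and -2.74 for Hoxb8. KO-S minus WT was called for 7 genes (4.77% of all genes), at -2.75 for Hoxa6, -2.05 for Hoxc6, -4.09 for Hoxa7, -2.02 for Hoxb7, -1.75 for Hoxb8, -2.38 for Hoxc8 and -2.97 for Hoxd8. For Hoxc8 and Hoxd8 the KO-S libraries lay below WT on the far side from the KO. Hoxb6 was the exception in KO-S, at -0.54 (95% interval -1.23 to 0.14, adjusted p = 0.644). Hoxc8 in KO-L gave 0.41 (-0.55 to 1.36, adjusted p = 0.692). WT library 1, which these tables do not hold, lay nearer to both rescues for Hoxa6, at 471. For Hoxb6, at 1532, it lay nearer to KO-L only. The KO-S libraries (3769 and 4111) lay nearer to WT library 3 (5137).

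**Figure D4:**
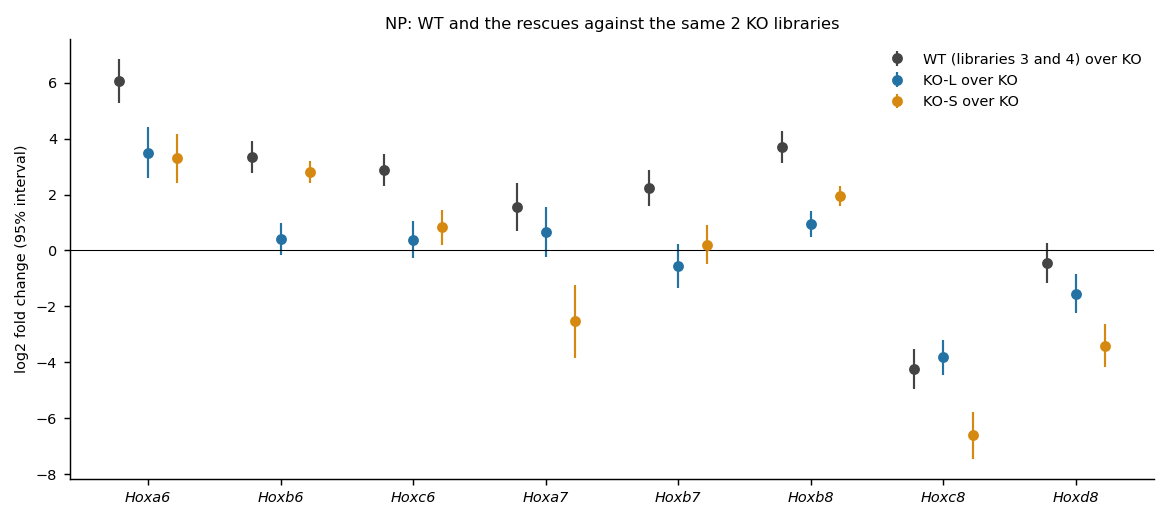
Log2 fold changes with 95% intervals (vertical axis) of the 8 genes in NP, for WT libraries 3 and 4, KO-L and KO-S, each against the same 2 KO libraries, from the authors' deposited tables. KO-S lies near WT for Hoxb6 and lowest of the 3 for Hoxa7, Hoxc8 and Hoxd8, and for Hoxc6, Hoxb7 and Hoxb8 both rescues lie under WT.

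Forcing exon 4 in (CSex4) and deleting it (Deltaex4) placed Hoxb6 apart in NP. It held 918 and 891 scaled reads in CSex4 and 5785 and 7429 in Deltaex4, against 1532, 5885, 5137 and 6403 in WT. Hoxb8 held 2882 and 2993 in CSex4 and 11572 and 12515 in Deltaex4, against 3173, 14030, 10386 and 14301. Hoxa6 held 626 and 570 in CSex4 and 2955 and 2239 in Deltaex4, against 471, 2828, 2234 and 2974. The Deltaex4 libraries lay among WT libraries 2 to 4 or close to them, and the CSex4 libraries lay near WT library 1 or below it. The authors' deposited table called Hoxb6 lower in CSex4 (-1.73 ± 0.42, adjusted p = 0.00168), 1 of 8 genes against 1.45% of all genes, and gave Hoxb8 -1.18 ± 0.44 (adjusted p = 0.0945) and Hoxa6 -0.96 ± 0.48. As a ratio of levels Hoxb6 was at -2.70 without WT library 1, at -0.77 without WT library 2 and at -2.39 against all 4 WT libraries. Hoxa6 turned sign, at -2.24 without WT library 1 and 0.34 without WT library 2.

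In Deltaex4 the authors' DESeq2-style table called none of the 8 genes, where 0.0809% of all genes were called. Hoxa6 (1.15 ± 0.58), Hoxb6 (1.13 ± 0.42) and Hoxc8 (-1.97 ± 0.82) had an unadjusted p under 0.05 there, 3 of 8 genes against 1.9% of all genes, and each had an adjusted p of 0.999964. For Hoxc8 the 2 Deltaex4 libraries (20.2 and 29.5) lay below all 4 WT libraries and the CSex4 libraries (184 and 170) above them. Against all 4 WT libraries, as a ratio of levels, Hoxa6 was at 0.29 and Hoxb6 at 0.48 in Deltaex4. The test of Deltaex4 minus CSex4 called Hoxb6 (2.86 ± 0.59, adjusted p = 0.000331), 1 of 8 genes against 1.78% of all genes. Hoxb8 gave 2.04 (95% interval 0.79 to 3.28, adjusted p = 0.0655), Hoxa6 2.11 (0.63 to 3.58, adjusted p = 0.145) and Hoxc8 -2.86 (-4.78 to -0.94, adjusted p = 0.114). Of the other 31 Hox genes, 7 were called lower in CSex4, 6 of them in groups 4 and 5, and none in Deltaex4.

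Ordered by level in NP, the genes fell into 3 patterns. For Hoxa6, Hoxb6, Hoxb8, Hoxb7 and Hoxc6 the KO or KO-L stood lowest and WT libraries 2 to 4 with Deltaex4 stood highest, and CSex4 lay between. Over all 4 WT libraries WT and Deltaex4 overlapped for all 5 genes, although for Hoxc6 both Deltaex4 libraries (1081 and 1288) lay below WT libraries 2 to 4 (1854 to 2220). KO-L and KO-S overlapped for Hoxa6 (376 to 506 and 368 to 388). For Hoxc8 the KO stood highest, CSex4 next, then WT and KO-L, which overlapped, then Deltaex4 and KO-S. Hoxa7 and Hoxd8 were lowest in KO-S. For Hoxa7, WT, CSex4 and Deltaex4 (250 and 181) overlapped at the top. For Hoxd8, CSex4 and the KO each overlapped WT (124 to 413) at the top. KO-L (146 and 155) and the higher Deltaex4 library (137) also lay inside that WT range.

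Markers of other cell types moved with the same groups. The 5 neural progenitor markers summed to 2531 to 2806 scaled reads in the KO, 5084 to 5301 in CSex4, 5589 to 7360 in KO-L, 11247 in each KO-S library, 19382 to 24169 in Deltaex4 and 7800 to 20440 in WT, whose lowest value was library 1. Nes made up most of the sums in the KO (1892 and 1785) and in KO-L (4850 and 6373). Against the KO the authors' deposited table called 3 of the 5 higher in KO-L (10.9% of all genes). It called 1 lower (13.8%), Sox1 at -2.18. The 3 neuron markers ran from 917 to 1043 in the KO and from 5635 to 29135 in WT. The 6 pluripotency markers summed to 35354 to 36150 in CSex4 and 17316 to 25321 in KO-L, against 5882 to 12500 in WT, 3594 to 9714 in the KO and 5768 to 6833 in KO-S. Of these sums Sox2 held 3681, 5512, 4082 and 4721 in WT and 835 and 458 in the KO. With WT libraries 3 and 4 the authors' deposited table called 4 of the 6 lower in WT than in the KO (17.3% of all genes). It called 1 higher (15.6%), Sox2 at 2.82. With WT libraries 1 and 2, 1 was higher in the KO (11.6%), Klf4 at 1.47, and 1 lower (9.85%), Sox2 at -2.86. Endoderm markers summed to 8791 to 18784 in the KO and 2668 to 20473 in WT, whose highest value was library 1, with 13571 from Afp. The authors' deposited table of NP KO against WT called 3 of the 5 higher (11.6% of all genes), among them Foxa2 at 2.21 and Gata4 at 1.85. It called 1 lower (9.85% of all genes), Afp at -2.25. With WT libraries 3 and 4, 3 of the 5 were lower in WT than in the KO (17.3% of all genes) and 0 higher. Trophoblast markers, of which 4 of 6 were summed, stood at 1551 to 2054 in the KO, 1479 to 1502 in CSex4 and 990 to 1271 in KO-L, all above WT (282 to 587), with 654 to 768 in KO-S and 268 to 1375 in Deltaex4. The 4 mesoderm markers summed to 664 to 758 in the KO and 1421 to 1504 in KO-S, against 316 to 573 in WT. Most of this was Meox1, at 738 and 634 in the KO and 1385 and 1476 in KO-S. Tbx6 was lower in the KO (7.10 and 3.41) than in WT (11.8 to 56.6), and T was higher (12.2 and 26.1 against 2.62 to 3.57). The authors' deposited tables of WT and KO in NP called 0 of the 4 in either direction. One mesoderm marker, Mesp1, was at 0 in both Deltaex4 libraries, and no other marker was at 0 in every library of a group. Their part in the Hox levels was not tested.

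**Figure D5:**
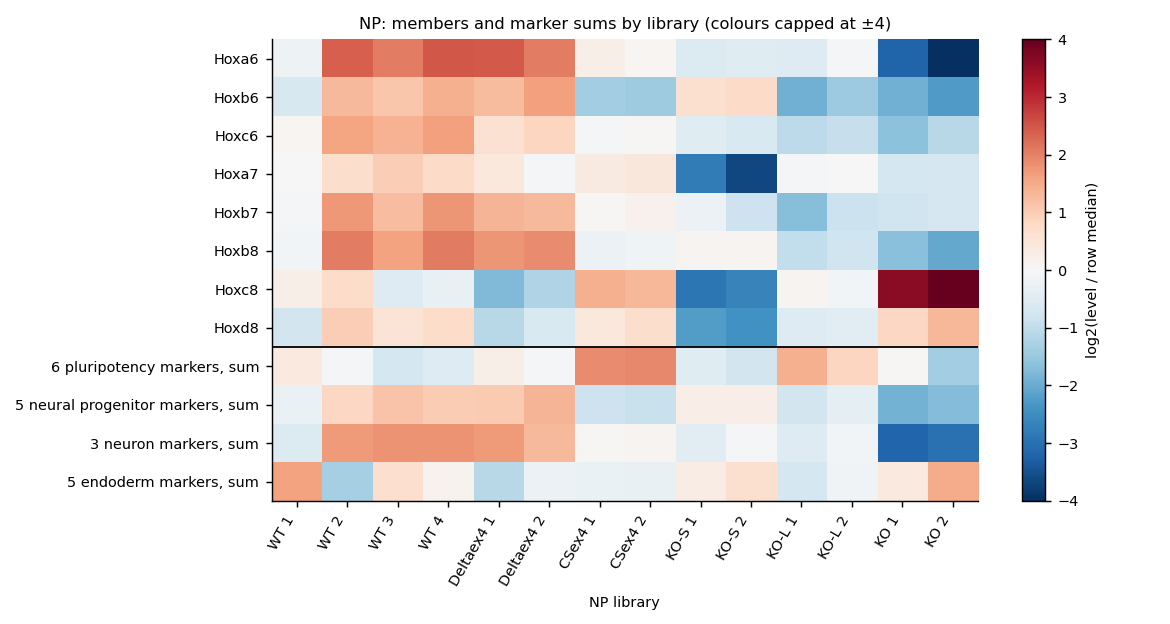
Levels of the 8 genes (upper rows) and summed levels of 4 marker lists (lower rows) in the 14 NP libraries (columns), as log2 of the level over the median of its row, in colour from -4 to 4. Hoxa6, Hoxb6, Hoxc6, Hoxb7 and Hoxb8 are low in the KO columns, where the neural progenitor and neuron rows are at their lowest, and WT library 1 looks paler than WT libraries 2 to 4 in the same rows.

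Partners and regulators of Hox genes were counted in the same tables. TALE proteins (Meis, Pbx and Pknox) bind DNA together with Hox proteins. By the statistics the authors deposited, 3 of 9 TALE genes were higher and 0 lower in ESC KO (Meis2 3.21, Pknox2 2.17 and Meis1 1.80), and 0 were higher and 3 lower in NP KO (among them Pknox2 -2.36 and Pbx3 -2.12), where 11% of all genes were called higher in ESC KO and 9.85% lower in NP KO. Against WT libraries 3 and 4, 6 of the 9 were higher in WT than in the KO (15.6% of all genes). Against the KO in NP, 4 were higher and 1 lower in KO-L, where 10.9% and 13.8% of all genes were. In KO-S 5 were higher and 0 lower, where 16.4% and 18% of all genes were. CSex4 had 3 lower than WT (Pknox2 -1.44, Meis2 -1.05 and Meis1 -0.95), where 1.45% of all genes were. Of 10 upstream genes (Cdx factors, retinoic acid receptors, Wnt3a, Fgf8, Gdf11 and T), 4 were higher and 1 lower in ESC KO in the authors' deposited table, led by Cdx1 at 4.24, Wnt3a at 3.96 and T at 3.48. Cdx1 and Cdx2 encode caudal factors that activate trunk Hox genes. In NP KO 1 of the 10 was higher, Cdx2 at 2.16, a share near the 11.6% of all genes. Against WT libraries 3 and 4 the authors' deposited table had 3 higher in WT (15.6% of all genes) and 2 lower (17.3%, a share near that of the list). In KO-L against KO in NP, 4 of the 10 were higher and 0 lower, where 10.9% and 13.8% of all genes were. KO-S against KO had 6 higher and 1 lower, where 16.4% and 18% of all genes were. The largest changes there were Wnt3a at 2.46, Cdx1 at 2.45 and Cdx2, the 1 fall, at -2.17. Of 8 trithorax and other activator genes, 1 was lower in ESC KO (Kdm6a, an H3K27 demethylase, at -0.50) and 1 lower in NP KO (Kmt2a, an H3K4 methyltransferase, at -1.56), by the authors' deposited tables, both near the shares of all genes called lower (7.27% and 9.85%). Against WT libraries 3 and 4, 2 of the 8 were higher in WT than in the KO, where 15.6% of all genes were.

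All 8 genes lay inside wide Suz12 regions of the authors' ESC list. Their spans were covered in full by 4 regions of 42108 to 69311 bp, where the list of 2865 regions had a median width of 2307 bp. At a distance of up to 2500 bp, 12.2% of 20992 protein-coding genes met a Suz12 region of any width, whether covered in full or not. On the submitters' build (mm10, per their processing notes) these were chr6:52196592-52255380 over Hoxa6 and Hoxa7, chr11:96267834-96335074 over Hoxb6, Hoxb7 and Hoxb8, chr15:102948309-103017619 over Hoxc6 and Hoxc8, the widest of the list, and chr2:74673537-74715644 over Hoxd8. In the H3K27me3 list 6 of the 8 genes were covered in full. Within 2500 bp, 23.0% of protein-coding genes met an H3K27me3 region of any width, covered in full or not. The 3 regions were chr6:52159116-52278545, at 119430 bp the widest of 6882, chr11:96249544-96318789 and chr2:74646053-74715984. Hoxc6 and Hoxc8 met none, with the nearest listed region 31630 and 23943 bp away. The lists hold regions that the authors took from a comparison with DiffBind, whose groups and direction are not given in the sources used here, so absence from a list does not show absence of the mark.

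The gene spans, from RefSeq (GRCm38.p6), also overlapped other annotated genes. Hoxa6 (chr6:52204858-52208672) lay wholly within Hoxa3 and the antisense gene Hoxaas3, Hoxb6 (chr11:96292814-96301569) within Hoxb5os, and Hoxd8 (chr2:74704615-74707933) within Gm38462. Whether counting used strand is not given in the sources used here, so reads of these 3 genes and of their partners may be mixed.

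Across the 13 comparisons the profiles most like the median of the 8 genes were those of Hoxb9 (Pearson r = 0.935), D430041D05Rik (0.932), Hoxb2 (0.932), Dcc (0.915) and Frmpd3 (0.913), among 15154 genes. For 7 of the 8 members the closest gene was Gjc1 for Hoxa6 (0.973), Fam184a for Hoxb6 (0.932), Zfp950 for Hoxc6 (0.931), Frmpd3 for Hoxa7 (0.920), Sox9 for Hoxb7 (0.936), Pdzrn3 for Hoxb8 (0.964) and 5730507C01Rik for Hoxc8 (0.95). Among the 8 themselves Hoxb6 and Hoxb8 were most alike (0.93), Hoxc8 was closest to Hoxd8 (0.85), and Hoxa6 and Hoxc8 were least alike (-0.36). The comparisons share libraries, and these values only describe them.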

How the data were processed

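PolyA RNA-seq of 32 samples (18 ESC, 14 NP) underlies 13 deposited tables of comparisons, and 2 region lists come from ESC ChIP-seq. Groups were taken from the sample titles. Per the file headers, each table holds the columns DESeq2 gives: the deposited baseMean is a signal (mean of reads over size factors), the authors' fold changes and SE are log2 values, and the p-values, deposited raw and adjusted, come from the authors' test. The region lists hold a deposited score between 0 and 1 per region, used only to describe them. The submitters' processing notes name Bowtie, TopHat, DESeq2, DiffBind, mm10 and dm3. Which aligner and annotation made the counts, and versions, are not given in the sources used here.

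The tables hold no counts per sample, so no test was refitted and the authors' adjusted p under 0.05 was the call. Whole reads of single libraries were recovered from the size-factor pattern in baseMean: 32 distinct libraries filled 60 places in the tables, reads matched for 100% of genes between places given to the same library and for at most 20.5% between any others, and 44 of 44 gene entries tried had 1 solution (Krt8 and Krt18 were not tried). Groups of libraries follow from which tables hold them. Size factors ran from 0.827 to 1.43, and the common scale held within 0.741 to 2.14%. In 6 ESC tables (all but KO) a gene read once, in WT library 1, had an absolute log2 fold change no larger than 0.235, against 0.81 or more for one read once elsewhere, so these fold changes rest on 2 WT libraries. The authors named all 13 tables as paired, so the deposited statistics may come from a paired fit, whose pairing is not given in the sources used here. Recovery was tested on simulated data.

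Differences between comparisons used the difference of log2 fold changes over the root of the summed squared SE, a normal p and Benjamini-Hochberg adjustment over all genes whose baseMean reached 10 in each of the 2 tables. Where tables share control libraries, this by itself makes the SE too large. The spread of the differences over all genes, in units of this SE, was 0.576 for KO-S3D minus KO-L3D in ESC. In NP it was 1.36 for KO-S minus KO-L and 1.54 for KO-L minus WT. For the knock-out, NP minus ESC, it was 1.6. In these pairs the test may thus also call too many genes. Ratios of levels carry a pseudocount of 0.5. The named genes were all 8 members, Suz12, the 5 genes most like their median profile and the closest gene to each (baseMean of at least 10 in 7 of the 13 tables), and list genes that were called and among the 3 largest changes of their list. A gene that met the likeness rule and a list gene are not reported here by name; list counts include the latter. The members and lists were chosen with earlier results of these data known. Alternatives were other thresholds, filters and centring, other SE, and leaving out libraries. Python 3.11.15, pandas 2.3.3, NumPy 2.4.6, SciPy 1.17.1 and Matplotlib 3.10.9 were used.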

Additional observations from a re-analysis of the deposited data

Results flagged for a closer look

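The effect of the Suz12 knock-out differed between NP and ESC by the test of the difference itself for 3 of the 4 genes with enough reads in both. NP minus ESC, the log2 fold changes differed by -4.30 for Hoxa7, by -5.49 for Hoxb7 and by -4.28 for Hoxd8. With no minimum on baseMean 6 of the 8 genes differed, and with the SE scaled to the spread over all genes fewer than 3 did. In the 4 NP WT libraries no gene of the 8 had a library far enough from the other 3 to pass Dixon's 95% critical value for 4 samples, and the highest gap over range was 0.751, for Hoxc6.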

How the results depend on the processing

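Of 83 repeats of the counts of genes called (other thresholds, filters, centring, SE and region rules), 78 stayed within 1.5 times the value reported. Part of these could not move. A stricter threshold or a minimum fold change adds no call where none was made. Scaling the SE changes nothing where no member was tested. The 78 are therefore no measure of how stable the calls are. With the SE scaled to the spread over all genes, KO-S3D minus KO-L3D in ESC called 1 of 1 gene in place of 0, Deltaex4 minus CSex4 in NP called 2 in place of 1, and KO-S minus KO-L in NP called 2 in place of 5. With no minimum on baseMean, NP minus ESC for the knock-out called 6 genes in place of 3, whereas with the scaled SE it called fewer than 3. Counting only start sites within 2500 bp, 4 genes lay at Suz12 regions in place of 8, because only 4 have a start in the promoter table. Single log2 ratios of called genes moved by more than their SE in 3 of 45 repeats that left out a library in ESC and in 21 of 100 in NP. Against NP WT libraries 2, 3 and 4, an alternative added after seeing the data, 6 of 7 called values moved, and against all 4, added likewise, 4 of 7. No paired analysis was possible because the deposited columns are comparisons and the recovered libraries carry no replicate number; the deposited statistics may already be paired, and no unpaired fit could be set beside them. In ESC the few reads of WT, from 1 to 14 per gene over 3 libraries, limit every fold change.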
